A study of Mus musculus with 47 samples.

Results

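H19 and 7 other imprinted genes that act on growth (Igf2, Dlk1, Cdkn1c, Peg3, Mest, Grb10 and Igf2r) were followed in mouse lung after ragweed challenge. These are 8 of 17453 gene symbols annotated on the arrays. Every probe set annotated to them was taken: 17 of 49372 probe set IDs, of which 11 were among the 25250 that passed the filter on low values and were tested. A probe set is a group of short probes on an Affymetrix array that together give 1 intensity for a transcript. The 8 genes were chosen from measured values of these same arrays, H19 among them, and which of the comparisons led to the choice is not recorded. All differences of the members are therefore given as a description, without p-values, and are not used as support.

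Lungs came from 4 groups with 2 samples each, coded 1a and 1b: ragweed at 24 h, PBS at 24 h, ragweed at 72 h and PBS at 72 h. Ragweed mice received ragweed pollen protein with alum as sensitization on day 0 and again on day 3, then intratracheal challenges with the protein on day 10 and day 17, and were killed either 24 h or 72 h later. PBS mice went through the same schedule with PBS. For them the labels do not mention alum, the adjuvant, so ragweed and alum cannot be told apart. Strain and age are not given. It is not stated whether 1a and 1b came from separate animals. Every standard error comes from the spread between samples within groups, and that spread may be technical. The spread was pooled over all groups of an array and drawn by limma towards that of probe sets of like intensity. A standard error is therefore not the spread of the compared groups alone. Whole lung RNA was measured, and fewer cells of a type and less RNA per cell cannot be told apart.

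An imprinted gene is read mainly from 1 parental copy, which is set by methylation laid down in the egg or the sperm. Igf2, Dlk1, Peg3 and Mest are read from the paternal copy, and H19, Cdkn1c, Igf2r and, in most tissues, Grb10 from the maternal copy. Igf2 is a fetal growth factor, H19 is a long noncoding RNA that shares enhancers and an imprinting control region with it, and most of these genes are abundant in the fetus and fall after birth. The arrays do not separate the parental copies. In RefSeq (GRCm38.p6) 4 of the 8 genes, H19, Igf2, Cdkn1c and Peg3, lie on chromosome 7, and 1 annotated gene, the noncoding Gm33148, lies between H19 and Igf2.

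H19, Igf2 and Mest are hosts of a microRNA, and the 1 probe set for H19 is annotated to Mir675 and H19 together. The 6 mature microRNAs are shown because the host transcript is what the arrays measured; the mature forms themselves were not measured. They are from RefSeq (GRCm38.p6), written 5′ to 3′, with the seed, bases 2 to 8, in capitals. The H19 pair lies on the minus strand at chr7:142577112-142577133 (5p) and chr7:142577078-142577099 (3p), the Igf2 pair on the minus strand at chr7:142654968-142654989 and chr7:142654932-142654952, and the Mest pair on the plus strand at chr6:30741314-30741336 and chr6:30741354-30741375. The 6 seeds are all different.
mmu-miR-675-5p: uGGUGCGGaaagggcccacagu
mmu-miR-675-3p: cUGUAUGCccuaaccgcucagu
mmu-miR-483-5p: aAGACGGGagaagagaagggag
mmu-miR-483-3p: uCACUCCUccccucccgucuu
mmu-miR-335-5p: uCAAGAGCaauaacgaaaaaugu
mmu-miR-335-3p: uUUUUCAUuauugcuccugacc

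RefSeq promoters (250 bases before to 50 after a transcript start) were matched for 6 of the 8 genes, all but H19 and Cdkn1c. They cover 12 starts in all, of which some overlap. They held a median of 13.5 CpG dinucleotides per 300 bases, against a median of 7 over all 32851 promoters of that length. CpG is the dinucleotide that carries the methylation of an imprint, and it reads the same on both strands. The Igf2 starts differed widely, with 2, 14, 24 and 7 CpG. The CpG-richest of them, at chr7:142658755-142659054 on the minus strand (GRCm38.p6), is shown because Igf2 had the largest ragweed difference of the 8 genes over both times, with each CpG in capitals. As many or fewer CpG were found in 81.6% of all promoters.
Igf2 promoter: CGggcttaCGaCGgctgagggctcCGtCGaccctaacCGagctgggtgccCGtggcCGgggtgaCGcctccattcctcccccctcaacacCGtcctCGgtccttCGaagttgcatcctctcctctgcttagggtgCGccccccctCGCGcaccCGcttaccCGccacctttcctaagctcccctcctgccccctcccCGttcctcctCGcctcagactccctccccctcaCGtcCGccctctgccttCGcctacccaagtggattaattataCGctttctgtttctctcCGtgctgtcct

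Values are linear intensities, and differences are on the log2 scale with their standard error (± SE, 2 samples per group). Values below a floor, the 40th percentile of their table, were set to it before log2 was taken; the floor was an intensity of 291.6 on first-version A, 356.4 on version 2 B and 244.7 on version 2 C. Between 1a and 1b of a group, r over probe sets was 0.899 to 0.922 on A, 0.802 to 0.860 on B and 0.728 to 0.882 on C, and the number of arrays limits the precision. Every sample was hybridized to A, B and C arrays in a first version and a version 2, except that version 2 A holds no ragweed 24 h arrays among those analysed here. On the first-version A table the ragweed arrays had been deposited at a trimmed mean near 793 and the PBS arrays at 223 to 373. They were brought to 1 scale before comparison. On version 2 all arrays shared the scale as deposited. Of 7 tested lung epithelium markers 6 were above the floor on all 8 samples, and the surfactant gene Sftpd lay under it in 5. The club cell secretoglobin Scgb1a1 ranged from 71315 to 80239 in both ragweed groups and PBS at 72 h, and was 30595 and 32315 in PBS at 24 h.

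H19 was high in ragweed lungs at 24 h and in PBS lungs at 72 h, and low in the other groups. It measured 1961 and 2302 in ragweed at 24 h, against 1148 and 1031 in PBS at 24 h. At 72 h it measured 1160 and 1037 in ragweed, against 2703 and 2737 in PBS. The groups overlapped at neither time, and the direction of the ragweed difference turned between the times. A lack of overlap between 2 groups of 2 samples is common here. Ragweed and PBS did not overlap for 34.2% of all tested probe sets at 24 h and 35.7% at 72 h. H19 was 1.95-fold higher in ragweed at 24 h (log2 difference 0.97 ± 0.15) and 2.48-fold lower in ragweed at 72 h (-1.31 ± 0.15).

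The response at 72 h minus that at 24 h was -2.28 ± 0.21 for H19, a 4.84-fold change of the ratio. The PBS groups differed from each other by as much as ragweed and PBS did at 72 h: H19 was 2.50-fold higher in PBS at 72 h than in PBS at 24 h (1.32 ± 0.15). Set against the PBS lungs of the other time, the ragweed differences were -0.36 ± 0.15 at 24 h and 0.01 ± 0.15 at 72 h, so the direction at each time rested on which PBS group was taken. The 5 comparisons share these samples, and the PBS groups enter each in turn or together. Averaged over both times, ragweed minus PBS was -0.17 ± 0.10.

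**Figure D1:**
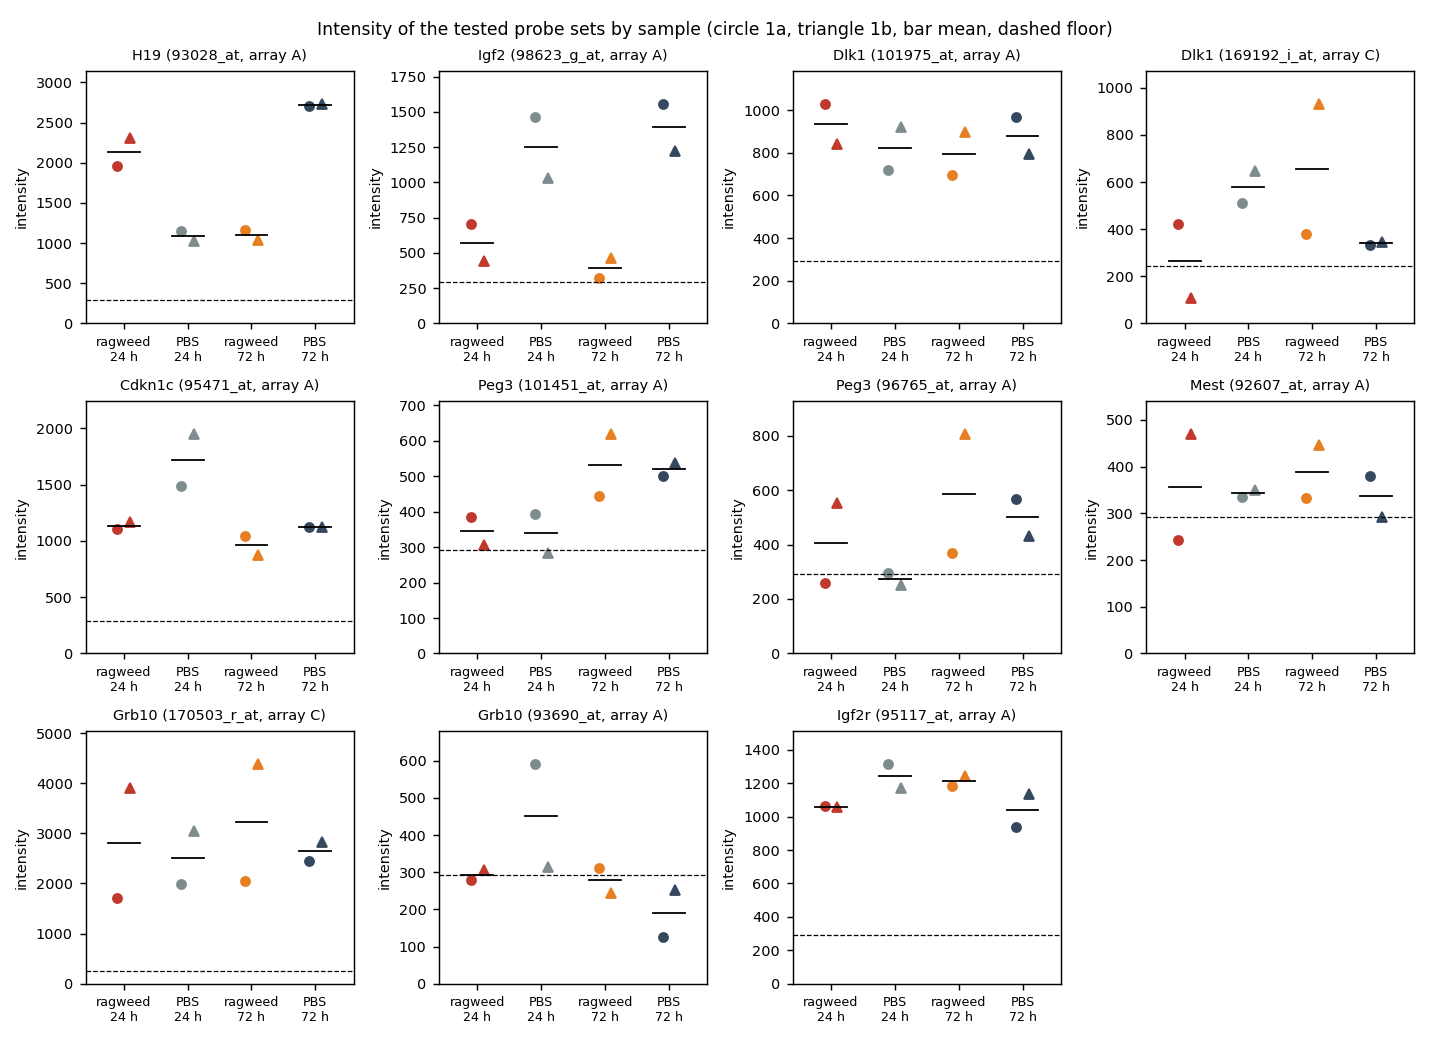
Intensity of the 11 tested probe sets in every sample, on linear axes from 0. Columns run ragweed 24 h, PBS 24 h, ragweed 72 h and PBS 72 h, circles are samples 1a, triangles 1b, bars the mean of 2 and the dashed line the floor. H19 is high in ragweed at 24 h (1961 and 2302) and PBS at 72 h (2703 and 2737), and Igf2 is lower in both ragweed groups than in both PBS groups.

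On version 2 A, H19 was again highest in PBS at 72 h, while ragweed at 72 h and PBS at 24 h overlapped. H19 measured 1195 and 2031 in ragweed at 72 h and 3193 and 3412 in PBS at 72 h, against 1440.2 and 1374 in PBS at 24 h. The differences there were -1.08 ± 0.23 for ragweed against PBS at 72 h and 1.23 ± 0.23 for PBS at 72 h against PBS at 24 h. The ragweed samples 1a and 1b lay apart on version 2, whereas they lay close together on the first version. The ratio of 3′ to 5′ actin control probes, a sign of RNA or label quality, also stood apart on version 2: 0.801 and 0.578 in ragweed at 72 h and 0.189 and 0.198 in PBS at 72 h, against 0.535 and 0.437 in PBS at 24 h. On the first version that ratio lay between 0.798 and 0.968 on all 8 arrays, and the H19 differences there were the -1.31 and 1.32 given above. The part of the actin and GAPDH ratios in the version 2 values was not tested.

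Igf2, the growth factor encoded beside H19, was lower in ragweed lungs at both times. Its probe set 98623_g_at measured 701 and 443 in ragweed at 24 h, against 1463 and 1031 in PBS at 24 h. Its 72 h values were 319.5 and 461 in ragweed, against 1558 and 1222 in PBS. Every ragweed sample lay below every PBS sample, of either time. The difference was -1.14 ± 0.33 at 24 h (2.20-fold lower), -1.85 ± 0.33 at 72 h (3.59-fold lower) and -1.49 ± 0.24 over both times (2.82-fold lower).

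The PBS groups overlapped for Igf2, with 1558 and 1222 at 72 h against 1463 and 1031 at 24 h (0.17 ± 0.33). The response at 72 h minus that at 24 h was -0.71 ± 0.47. Igf2 and H19 thus differed in the direction of their 24 h ragweed differences, while both were lower in ragweed at 72 h. On version 2 A the Igf2 values at 72 h were 1102 and 311 in ragweed, against 1182 and 1324 in PBS (-1.10 ± 0.52), with sample 1a close to the PBS values and 1b far below them. The second Igf2 probe set, 98622_at, stayed below the floor on all 14 A arrays (18.1 to 104 in intensity) and gave no difference.

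**Figure D2:**
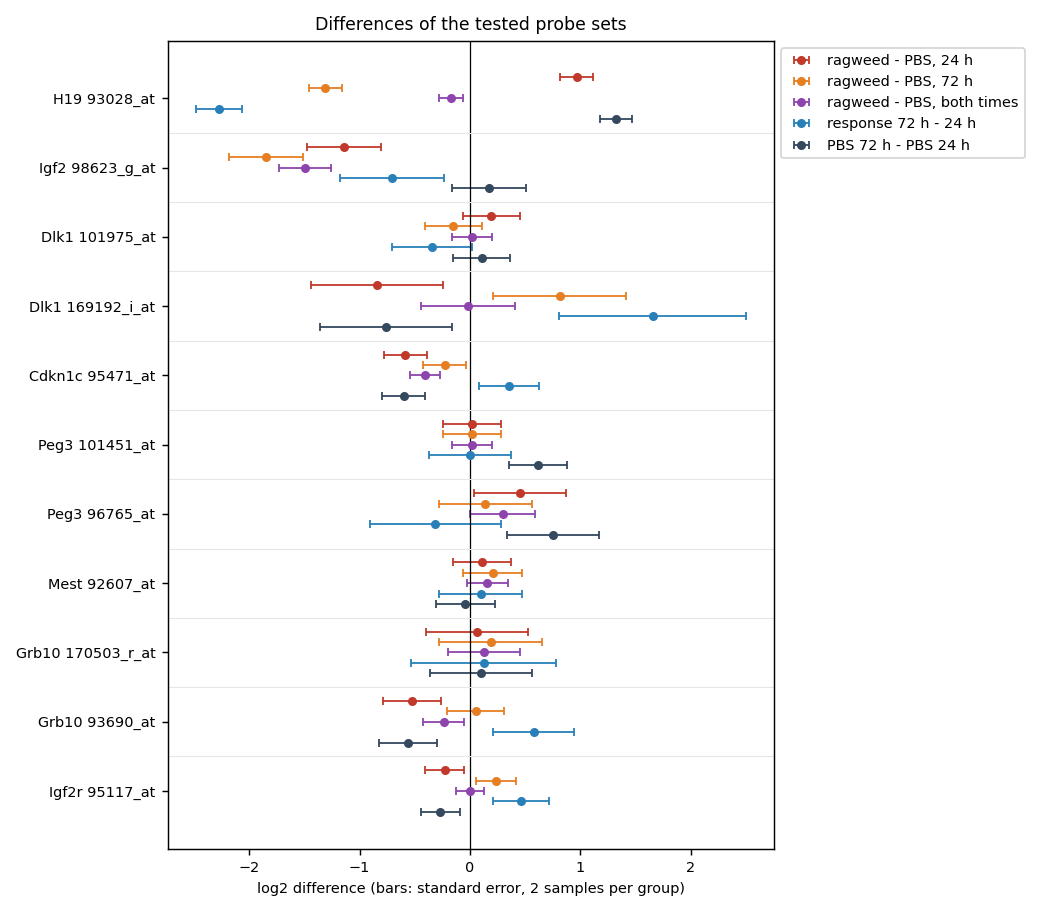
Log2 differences of the 11 tested probe sets in 5 comparisons; points are the fitted differences and bars their standard errors, with 2 samples per group. H19 stands on opposite sides of 0 at 24 h (0.97) and 72 h (-1.31), Igf2 is below 0 at both (-1.14 and -1.85), and the other probe sets lie between -0.84 and 0.81 in both.

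Igf2r clears the Igf2 protein from the cell surface and carries lysosomal enzymes. Its probe set 95117_at measured 1063 and 1055 in ragweed at 24 h, against 1315 and 1174 in PBS at 24 h. The 72 h values were 1186 and 1243 in ragweed, against 937 and 1138 in PBS. The groups were apart at both times but the differences were small, -0.23 ± 0.18 at 24 h and 0.23 ± 0.18 at 72 h, and the direction at 72 h turned on version 2 A. There Igf2r measured 1180 and 1229 in ragweed, against 1438 and 1582 in PBS (-0.33 ± 0.13).

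Grb10 is an adaptor that binds the insulin and IGF1 receptors and restrains their signal. Of its 5 probe sets, 93691_s_at and 95450_at were below the floor on every A array, and 110544_at was below it on all B arrays. The last is annotated to Grb10 on the first-version B array and to another locus, LOC102631979, on version 2. Probe set 93690_at lay near the floor, with 278 and 307 in ragweed at 24 h, against 591 and 314 in PBS at 24 h (-0.53 ± 0.26). Its 72 h values were 313 and 243 in ragweed, against 127 and 252 in PBS, where 3 of the 4 values are under the floor and have no order.

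The bright Grb10 probe set, 170503_r_at on the C array, varied more between 1a and 1b than between groups. It measured 1700.1 and 3895 in ragweed at 24 h, against 1993 and 3038 in PBS at 24 h; at 72 h the values were 2049.6 and 4384 in ragweed, against 2455 and 2824 in PBS at 72 h. Sample 1b was above 1a in all 4 groups. The ragweed differences were 0.06 ± 0.46 at 24 h and 0.19 ± 0.46 at 72 h, and all groups overlapped.

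Cdkn1c, a cyclin-dependent kinase inhibitor that stops the cell cycle, was highest in PBS lungs at 24 h. It measured 1102 and 1169 in ragweed at 24 h, against 1487 and 1951 in PBS at 24 h (-0.59 ± 0.19, 1.50-fold lower). In the 72 h lungs it measured 1044 and 878 in ragweed, against 1121 and 1123 in PBS (-0.23 ± 0.19). The PBS groups were apart too, with PBS at 72 h 1.52-fold below PBS at 24 h (-0.60 ± 0.19).

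Version 2 A gave Cdkn1c the same order with wider gaps. It measured 915 and 811 in ragweed at 72 h and 1384 and 1402 in PBS at 72 h, against 2066 and 2487 in PBS at 24 h. The ragweed difference at 72 h was -0.69 ± 0.15 there, larger than on the first version, and PBS at 72 h minus PBS at 24 h was -0.70 ± 0.15. In both versions no sample of the other groups reached either PBS sample of 24 h.

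**Figure D3:**
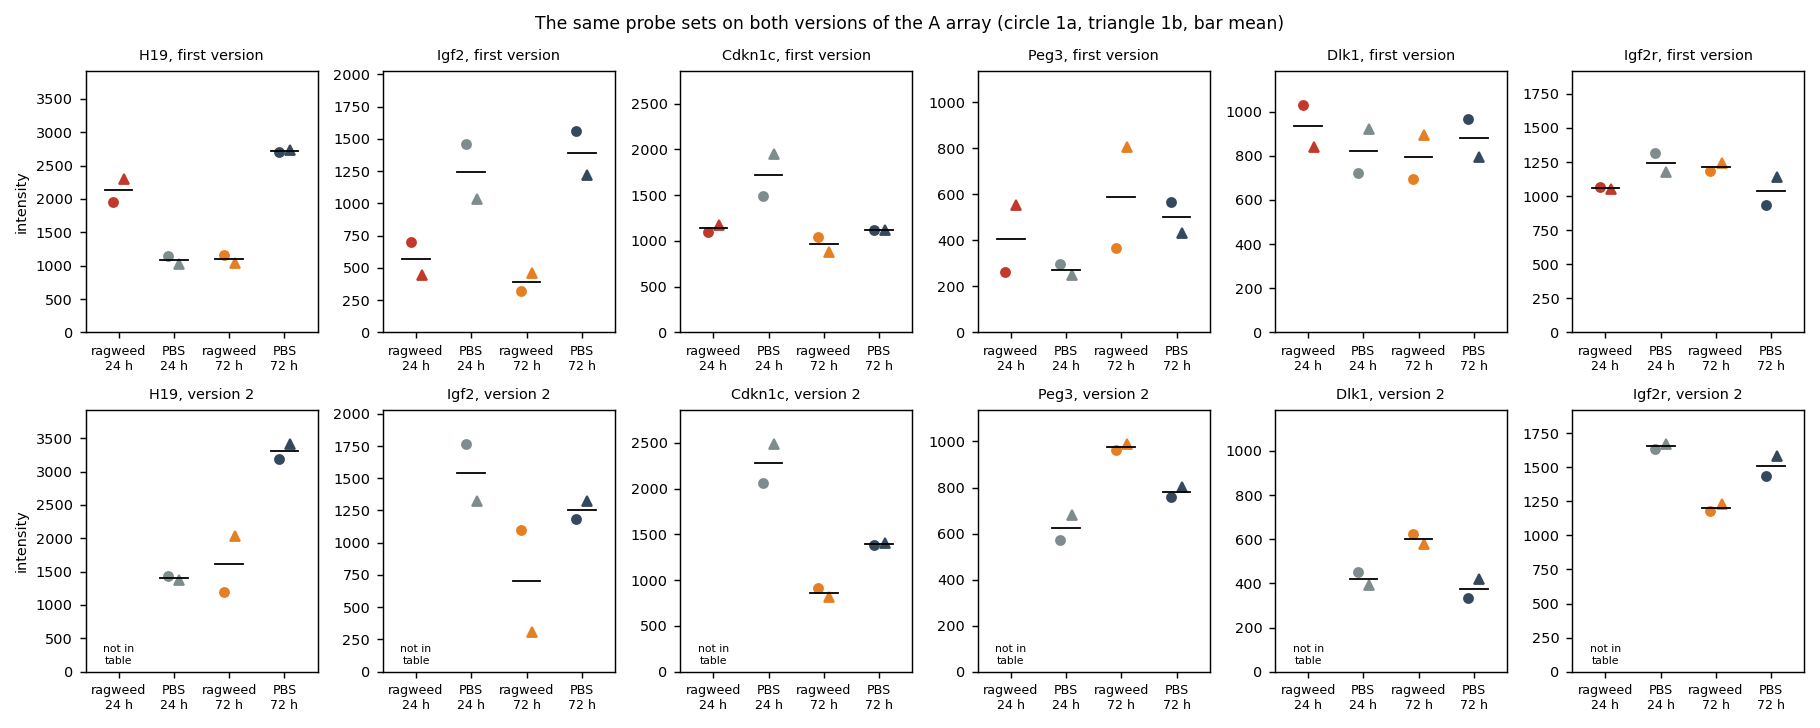
Intensity of 6 probe sets on the first version (upper row) and version 2 (lower row) of the A array, with 1 linear scale per gene. Circles are 1a, triangles 1b and bars the mean; ragweed at 24 h is not in the version 2 table. H19, Igf2, Cdkn1c and Peg3 (96765_at) keep the sign of their 72 h ragweed difference on both, while Dlk1 (-0.15 and 0.68) and Igf2r (0.23 and -0.33) do not.

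Dlk1 is a membrane protein of progenitor cells that holds back the maturation of fat cells. Its probe set 101975_at measured 1031 and 840.2 in ragweed at 24 h, against 720.2 and 921 in PBS at 24 h (0.19 ± 0.26). Its values at 72 h were 695 and 896 in ragweed, against 966 and 794.5 in PBS (-0.15 ± 0.26). The groups overlapped at both times. On version 2 A they did not, with 623 and 578 in ragweed at 72 h, against 333 and 420.1 in PBS (0.68 ± 0.23).

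The C array probe set of Dlk1, 169192_i_at, was scattered. It measured 420.2 and 108 in ragweed at 24 h, against 511 and 648 in PBS at 24 h (-0.84 ± 0.60); at 72 h the values were 379.9 and 933 in ragweed, against 333 and 346 in PBS at 72 h (0.81 ± 0.60). The response at 72 h minus that at 24 h was 1.65 ± 0.85. This probe set disagreed in sign with 101975_at of the first version at both times. At 72 h the version 2 difference of 101975_at (0.68 ± 0.23) had the same sign. The B array probe set, 108265_at, was above the floor on 1 of 8 version 2 arrays and none of the first version.

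Peg3 encodes a zinc finger protein linked in mice to maternal behaviour and fetal growth. Its values went with time more than with ragweed at probe set 101451_at. At 96765_at the time and ragweed differences were alike on version 2 A. Probe set 101451_at measured 384 and 307 in ragweed at 24 h, against 394 and 284 in PBS at 24 h (0.02 ± 0.26); at 72 h the values were 445 and 619.6 in ragweed, against 501 and 537 in PBS at 72 h (0.02 ± 0.26). Probe set 96765_at measured 260.5 and 554 in ragweed at 24 h, against 296 and 250.1 in PBS at 24 h (0.45 ± 0.42); at 72 h the values were 368 and 806 in ragweed, against 569 and 430.3 in PBS at 72 h (0.14 ± 0.42).

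Both probe sets of Peg3 were higher in PBS at 72 h than in PBS at 24 h, with no overlap, by 0.61 ± 0.26 and 0.75 ± 0.42. The PBS groups also did not overlap for 35.7% of all tested probe sets. On version 2 A those differences were 0.43 ± 0.19 and 0.32 ± 0.19, and the third Peg3 probe set, 161316_f_at, which was used on version 2 alone, gave 0.52 ± 0.25. The ragweed differences at 72 h on version 2 were -0.05 ± 0.19 for 101451_at, 0.32 ± 0.19 for 96765_at and 0.36 ± 0.25 for 161316_f_at.

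Mest, an enzyme of the alpha/beta hydrolase fold that is abundant in fetal mesoderm, lay close to the floor. It measured 242 and 470.2 in ragweed at 24 h, against 336 and 351 in PBS at 24 h (0.11 ± 0.27); at 72 h the values were 332 and 446 in ragweed, against 379.6 and 293 in PBS at 72 h (0.21 ± 0.27). The groups overlapped at both times, and on version 2 A the 72 h difference had the other sign (-0.35 ± 0.21).

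Read over all members, the test across the 25250 probe sets (limma, Benjamini-Hochberg, adjusted p under 0.05) called few. At 24 h it called 0 of the 11 member probe sets, where 0.23% of all tested were called. An unadjusted limma p under 0.05 was reached at 24 h by 3 of the 11 and by 2190 of all 25250. Of the 11 it was reached by 2 at 72 h, 2 over both times, 1 in the time difference and 3 between the PBS groups. Of all 25250 it was reached by 2431 at 72 h, 2815 over both times, 1857 in the time difference and 2107 between the PBS groups. The unadjusted counts of the gene lists below stand beside these. At 72 h the test called 1 of 11, H19, where 0.527% of all were called. Over both times it called 1 of 11, Igf2, where 0.65% of all were called. For the response at 72 h minus that at 24 h it called 1 of 11, H19, where 0.0356% of all were called, and for PBS at 72 h against PBS at 24 h again 1 of 11, H19, where 0.281% of all were called.

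These counts follow from how the genes were chosen, and nothing is read from them. The median log2 difference of the 11 was 0.02 at 24 h and 0.05 at 72 h. Each of the calls of Igf2 over both times, of H19 in the time difference and of H19 between the PBS groups was lost when any 1 of the 8 samples was left out, although the H19 time difference stayed between -2.39 and -2.16 and the Igf2 difference between -1.66 and -1.33. The H19 call at 72 h was lost in 5 of those 8 fits, without ragweed 24 h 1b or without either 72 h sample of ragweed or PBS, with differences between -1.39 and -1.23.

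Markers of skeletal muscle were highest as a sum in the groups high in H19, though not every one of them was. Of 14 skeletal muscle markers 11 were tested, and their summed intensity was 18251 and 19297 in ragweed at 24 h, against 12044 and 9464 in PBS at 24 h; at 72 h the values were 16639 and 14758 in ragweed, against 22693 and 23589 in PBS at 72 h. Groups high in H19 were thus the groups with the highest muscle sums. The other groups were alike in H19 but not in this sum, which was higher in ragweed at 72 h than in PBS at 24 h. Of the 11 markers 8 were above 0 at 24 h. Pvalb did not follow, with 3650 and 2908 in ragweed at 24 h, against 4739 and 2649 in PBS at 24 h. Acta1, skeletal muscle actin, measured 6182 and 7559 in ragweed at 24 h, against 2406 and 2003 in PBS at 24 h; at 72 h the values were 5191 and 5323 in ragweed, against 8395 and 8395 in PBS at 72 h.

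Acta1 rose in ragweed at 24 h (1.64 ± 0.13, limma adjusted p = 0.00127) and in PBS at 72 h over PBS at 24 h (1.94 ± 0.13, limma adjusted p = 0.0013), and its response at 72 h minus that at 24 h was -2.31 ± 0.18 (limma adjusted p = 0.00556). At 72 h it was not called (ragweed minus PBS -0.68 ± 0.13), and unlike H19 it was higher in ragweed at 72 h than in PBS at 24 h. No other tested skeletal muscle marker was called in any of the 5 comparisons. At an unadjusted p under 0.05 there were 6 of the 11 at 24 h, 4 at 72 h and 7 each in the time difference and between the PBS groups. The part of muscle tissue in the H19 result was not tested.

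The summed intensities of the heart muscle and squamous epithelium markers were highest in PBS at 72 h. Of 9 tested heart markers, limma called 2 lower in ragweed at 72 h and 0 between the PBS groups, where 6 had an unadjusted p under 0.05. Of 7 tested squamous markers it called 5 lower in ragweed at 72 h and 4 higher in PBS at 72 h than in PBS at 24 h. Not every member followed the sums: the heart marker Sln was under the floor in PBS at 72 h (63.7 and 71.7) and the squamous marker Krt14 was not high there (305 and 46.9). The 9 heart markers summed to 10959 and 10997 in ragweed at 72 h, against 18361 and 19877 in PBS at 72 h. Their 24 h sums were 9534 and 10475 in ragweed, against 12437 and 11673 in PBS. The 7 squamous markers summed to 20055 and 15256 in ragweed at 72 h, against 48824 and 51234 in PBS at 72 h, and to between 14956 and 17767 in all 24 h samples. The keratin Krt4 fell in ragweed at 72 h (-1.47 ± 0.13, limma adjusted p = 0.00357) and rose in PBS at 72 h over PBS at 24 h (1.74 ± 0.13, limma adjusted p = 0.00315).

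None of these markers was at 0, since array intensities have no true 0. Of 9 fat markers 6 were tested, and 1 was called between the PBS groups: the brown fat gene Ucp1 rose in PBS at 72 h over PBS at 24 h (1.85 ± 0.24, limma adjusted p = 0.0246). Lep measured 987 and 1364 in PBS at 72 h, against 1684 and 1124 in PBS at 24 h. Of the 7 tested lung epithelium markers 2 rose at 24 h, Scgb1a1 and Cyp2f2, and 1 fell at 72 h, Cyp2f2. Cyp2f2, a club cell enzyme, had differences of 0.65 ± 0.09 at 24 h (limma adjusted p = 0.0367) and -0.81 ± 0.09 at 72 h (limma adjusted p = 0.00894). In the time difference 4 of these 7 were above 0, where H19 was below it, but the 1 that was called was below 0. Between the PBS groups 2 of the 7 were called, both higher at 72 h, as H19 was. Cyp2f2 measured 21306 and 21531 in PBS at 72 h, against 6351 and 7065 in PBS at 24 h. Sftpa1 at 72 h measured 6881 and 7341 in ragweed, against 4682 and 3329 in PBS. The part of these tissues in the H19 values at 72 h was not tested.

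**Figure D4:**
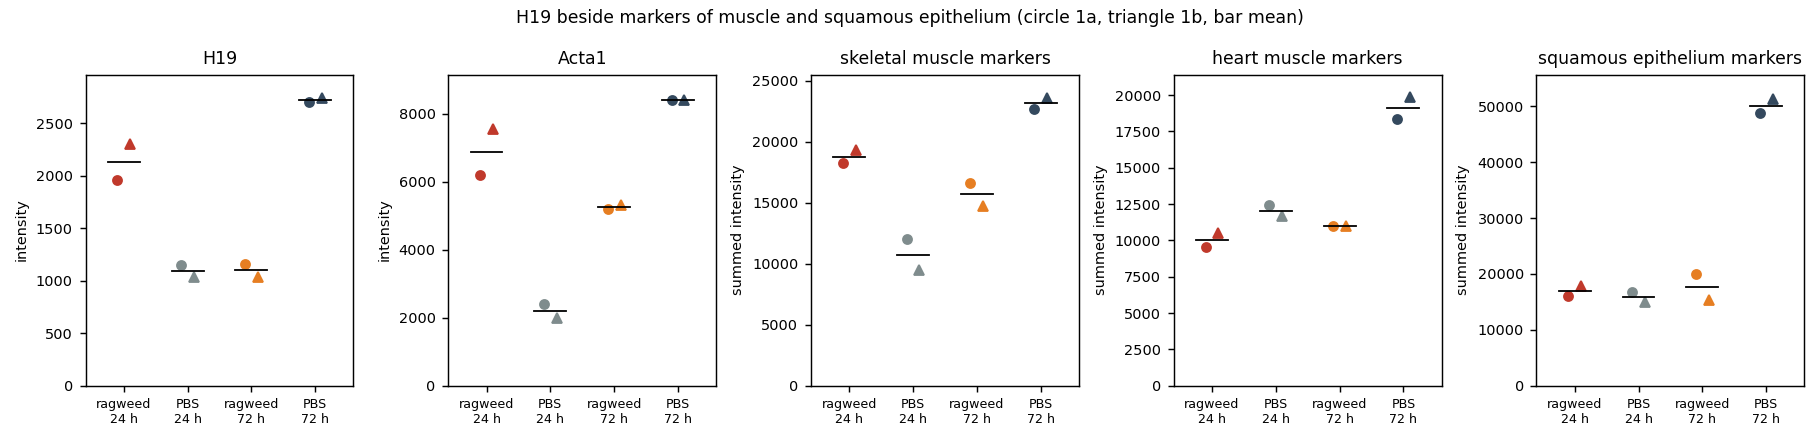
Intensity of H19 and of Acta1, and summed intensity of the tested skeletal muscle, heart muscle and squamous epithelium markers, on linear axes from 0; circles are 1a, triangles 1b and bars the mean. The skeletal muscle sum is highest in PBS at 72 h (22693 and 23589) and next in ragweed at 24 h (18251 and 19297), the groups with the highest H19, while the heart and squamous sums are highest in PBS at 72 h.

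Beside Igf2, markers of several other tissues changed in ragweed when both times were averaged. Of the 7 tested squamous markers 3 fell, Krt4, Krtdap and Krt13, and the median of the 7 was -0.59. The median of the squamous markers was -0.08 at 24 h, with 0 of 7 at an unadjusted limma p under 0.05, and -1.40 at 72 h. No squamous marker was called at 24 h, and neither was Igf2. Of 6 tested macrophage and monocyte markers 1 rose, the mannose receptor Mrc1 (1.27 ± 0.19, limma adjusted p = 0.0316), with all 6 at an unadjusted p under 0.05 and 5 of them above 0. Of 7 fibroblast markers, all tested, the collagen Col1a1 fell at 72 h (-0.64 ± 0.10, limma adjusted p = 0.0339) and over both times (-0.51 ± 0.07, limma adjusted p = 0.0211), and it was the only one called. Their sums were 21605 and 21006 in ragweed at 24 h, against 24462 and 26640 in PBS at 24 h; at 72 h the values were 23259 and 22582 in ragweed, against 31486 and 26517 in PBS at 72 h. Of 5 tested cartilage markers Cytl1 fell over both times (-0.98 ± 0.16, limma adjusted p = 0.0449).

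The atrial genes Myl7 (-1.22 ± 0.12, limma adjusted p = 0.00409) and Nppa (-0.88 ± 0.10, limma adjusted p = 0.00818) fell over both times too. Of 5 mesothelial markers 4 were tested, and the keratin Krt19 fell over both times (-0.54 ± 0.08, limma adjusted p = 0.0242). The mesothelial sums were 4882 and 4831 in ragweed at 24 h, against 7199 and 8001 in PBS at 24 h; at 72 h the values were 3911 and 3576 in ragweed, against 4802 and 4950.1 in PBS at 72 h. Of 7 endothelial markers, all tested, Cdh5 (-0.55 ± 0.09, limma adjusted p = 0.0353) and Kdr (-0.78 ± 0.13, limma adjusted p = 0.0464) fell over both times, and Vwf rose (0.48 ± 0.08, limma adjusted p = 0.0438). The part of these tissues in the Igf2 result was not tested.

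The genes whose log2 values ran most like H19 over the 8 samples, among 5514 probe sets of the A table with a single gene symbol, were Mgst2 (Pearson r = 0.960), Usp25 (0.949), S1pr4 (0.928), Zan (0.921), Ppp1r21 (0.914) and Rpp25l (0.906). Mgst2 is a microsomal glutathione transferase and S1pr4 a sphingosine 1-phosphate receptor of white blood cells. Mgst2 measured 416 and 397 in ragweed at 24 h, against 209.6 and 314 in PBS at 24 h; at 72 h the values were 329 and 225 in ragweed, against 435.5 and 434 in PBS at 72 h. The points share their arrays and their scaling, and r here describes likeness over 4 groups of 2.

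For Igf2 the 6 most alike, among 5513, were Tnxb (r = 0.986), Agap1 (0.976), Ltbp4 (0.975), Myh9 (0.965), Smad6 (0.963) and Anxa5 (0.958). Tnxb is the matrix protein tenascin X, Ltbp4 binds latent TGF-beta in elastic fibres, and Smad6 inhibits BMP signalling. Ltbp4 measured 4694 and 4652 in ragweed at 24 h, against 7531 and 6660 in PBS at 24 h; at 72 h the values were 3387 and 4295 in ragweed, against 7493 and 6606 in PBS at 72 h. As with Igf2, every ragweed value lay below every PBS value. Ltbp4 was picked for its likeness to Igf2 over these samples, so this order is not a separate result.

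The rest of the IGF axis was called in no comparison. Of 20 listed genes (Igf1, its receptors, the binding proteins and adaptors) 12 were tested, and 0 passed the limma test in any of the 5 comparisons. At an unadjusted p under 0.05 there were 3 at 24 h, 2 at 72 h, 7 over both times, 2 in the time difference and 2 between the PBS groups. Their median log2 difference was -0.32 at 24 h, -0.25 at 72 h and -0.31 over both times, where the median of all tested probe sets was 0.00, and 8 of the 12 were below 0 in each of the 3.

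The largest differences of the IGF axis at 24 h were those of the binding protein Igfbp4 (-0.79 ± 0.22, limma adjusted p = 0.306) and the adaptor Irs1 (-0.47 ± 0.28, limma adjusted p = 0.713). At 72 h they were those of the binding protein Igfbp2 (-0.89 ± 0.18, limma adjusted p = 0.116) and the RNA-binding protein Igf2bp3 (0.79 ± 0.33, limma adjusted p = 0.469). Igfbp2 measured 1259.9 and 1826 in ragweed at 72 h, against 3017 and 2610.3 in PBS at 72 h. Between the PBS groups they were those of Igfbp3 (0.61 ± 0.24, limma adjusted p = 0.54) and Igfbp2 (0.54 ± 0.18, limma adjusted p = 0.455).

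Of 38 other imprinted genes 23 were tested, and 0 passed the limma test in any comparison. At an unadjusted p under 0.05 there were 3 at 24 h, 5 at 72 h, 5 over both times, 3 in the time difference and 6 between the PBS groups. Their medians were -0.16 at 24 h, -0.05 at 72 h and -0.26 between the PBS groups. The differences of largest size were those of Rasgrf1, a Ras exchange factor, at 24 h (-1.47 ± 0.39, limma adjusted p = 0.281), and of the nucleosome assembly gene Nap1l5 at 72 h (-1.17 ± 0.32, limma adjusted p = 0.201).

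Nap1l5 had the same signs as H19 in the time difference (-1.82 ± 0.45, limma adjusted p = 0.375) and between the PBS groups (1.19 ± 0.32, limma adjusted p = 0.259). It measured 494 and 639.7 in ragweed at 24 h, against 258 and 57.9 in PBS at 24 h; at 72 h the values were 234 and 366 in ragweed, against 914 and 721 in PBS at 72 h, so that the PBS 24 h samples and ragweed 72 h 1a lay under the floor. Cell cycle genes beside Cdkn1c, 9 tested of 12 CDK inhibitors, G1 cyclins and their kinases, also gave 0 calls with limma in every comparison. At an unadjusted p under 0.05 there were 1 at 24 h, 0 at 72 h, 1 over both times, 0 in the time difference and 2 between the PBS groups, and Cdkn1a was the one with the largest difference at 24 h (0.61 ± 0.73, limma adjusted p = 0.872) and at 72 h (-0.80 ± 0.73, limma adjusted p = 0.79).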

How the data were processed

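The authors deposited 6 tables from murine U74 arrays, in linear intensity with a value for each probe set on each array. The software behind these values was not given in the sources used here. A repeat listing of the first-version A array 1a of ragweed 24 h, lacking its letter and equal to it after division by 2.63, was not counted again, so 46 of 47 listed arrays are distinct. The first-version A table (9977 IDs shared with version 2 A) was brought to a trimmed mean (2%) of 800 per array and then quantile normalized; nothing was rescaled on version 2 B and C. Version 2 A was fitted apart at its deposited scale, over its 6 arrays, with a floor of 237.8. Control probe sets were left out. Values under the floor (40th percentile of the table) were raised to it, and probe sets above it on at least 2 arrays were tested with limma 3.58.1 in R 4.3.3: 1 mean per group over 8 samples, 4 residual degrees of freedom, eBayes with a trend, and Benjamini-Hochberg over the 25250 probe sets pooled, with a threshold of 0.05. The fit was tested on simulated data. Fold changes are 2 to the power of the log2 difference, after the floor. Lists use 1 probe set per gene. Symbols came from the array annotation: of the probe sets used, 27022 had 1 symbol, 674 several and 6560 none.

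Members and gene lists were chosen with earlier results of these data known. Named were all members, the 6 genes most like H19 and Igf2, every called gene of the IGF, imprinted and cell cycle lists or else those of largest difference, and up to 4 genes of a marker list; Krt19, Cytl1, Ucp1 and Cyp2f2 were among the called markers. Samples with the same letter did not deviate together: their 1a minus 1b differences correlated between groups with r from -0.079 to 0.0438, so no replicate block was used. Alternatives covered normalization, floor, filter, array version, variance trend, adjustment, replicate block, PBS groups and samples left out. Probe positions are not given, since no build is named for the arrays.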

Additional observations from a re-analysis of the deposited data

Results flagged for a closer look

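The ragweed response of H19 differed between the times: the 72 h log2 difference minus that at 24 h was -2.28 ± 0.21, with H19 higher in ragweed than in PBS at 24 h and lower at 72 h in every sample. It was 1 of 9 probe sets called in that comparison with limma and Benjamini-Hochberg adjustment, and was not called without the variance trend. H19 was among the genes chosen from these values, so the difference is a description. The skeletal muscle actin Acta1 had a difference of -2.31 ± 0.18 in the same comparison. With 2 samples per group no sample could be tested for standing apart from its own group.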

How the results depend on the processing

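Of 91 recomputed counts of called member probe sets, 50 kept the count and 41 did not. At 24 h the count became 1 (H19) with a filter of at least 4 arrays or with adjustment within each table. At 72 h it became 2 (H19 and Igf2) under the same settings, 0 on the other array version and 0 with PBS samples of the other time as reference, where the H19 difference turned to 0.011. Over both times it became 0 without a filter, without a variance trend and with the replicate block. The time difference went to 0 without a trend, and the PBS comparison to 0 without a trend and on the other version. Leaving out 1 sample gave 0 to 1 at 72 h and 0 in the 4 other comparisons. The replicate block changed no other member call. Causes were not tested, except that a sample left out removes a degree of freedom.

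Counts over all probe sets also moved by over 1.5 times. At 24 h, 58 became 121 without a filter, 101 with the stricter filter, 91 adjusted within each table and 22 to 204 with 1 sample left out. At 72 h, 133 became 85 on the other version, 80 without a trend, 236 and 238 against PBS of the other or of both times, and 2 to 59 with 1 sample left out. Over both times, 164 became 256, 98, 248 and 39 to 106 with the stricter filter, no trend, adjustment within tables and 1 sample left out. In the time difference, 9 became 123 without a filter, 20 with the stricter one, 4 without a trend, 23 within tables and 0 to 5. For PBS at 72 h against 24 h, 71 became 118 without a filter, 107 with the stricter one, 32 without a trend, 41 on the other version and 0 to 20. Of 997 recomputed member differences, 926 moved by less than the within-group SD. Many of the settings cannot move a difference: the trend, the adjustment, the filter, the replicate block and a sample left out of another group. The count of 926 is therefore no measure of stability. On the other array version 10 of 18 moved by more than the SD. Signal over background limits Mest, Peg3 and the A array Grb10 and C array Dlk1 probe sets near the floor, and 5 of the 6 untested probe sets; the other, of Peg3, is on version 2 A only.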
